A study of Rattus norvegicus with 10 samples.

Results

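The Egr, Nr4a and Klf early response factors are transcription factors whose genes are switched on quickly by growth factors, hormones, stretch or stress. They were chosen by gene name, as the probe sets whose only symbol in the array's annotation was Egr1, Egr2, Egr3, Nr4a1, Nr4a2, Nr4a3, Klf2, Klf4, Klf6 or Klf15. All 10 genes were found, with 22 of the 31042 probe sets and 10 of the 14217 genes measured. Hearts came from male Fischer-344 rats, an inbred strain used in research on aging, fed standard chow and given no other treatment. The Old group was 24 months of age (5 arrays, replicates 2 to 6) and the Young group 6 months (5 arrays, replicates 1, 2, 3, 4 and 6). The sample protocols name the whole heart and the series text the ventricles, which leaves the presence of atria unknown. The labels do not say that every array holds another animal, and p-values then reflect the spread between these arrays alone, which may be technical.

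Each value is on a log2 scale on which a probe set's median over the 10 arrays is 0. The values show how arrays differ from each other. Apart from a coarse brightness class inferred from their numerical step, they carry no absolute level, so genes cannot be ranked by abundance. The number of arrays limits the precision. Where the ages of a probe set do not overlap, this centring places the lowest Old and the highest Young array at equal distances from 0. Array medians lay between -0.0097 and 0.0038 in Old hearts and between -0.0061 and 0.0093 in Young hearts. A gene is said to have risen or fallen where its adjusted p in limma, over all genes, was under 0.05. By that rule 11.9% of all genes changed, and 6.77% rose.

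Egr proteins bind GC-rich DNA through zinc fingers, and their genes are induced through serum response factor after mitogens or mechanical load. Nr4a proteins are orphan nuclear receptors whose activity is set largely by how much is made, and their genes respond to cAMP and calcium signals. Klf proteins bind CACCC and GC-rich sites. Klf2 and Klf4 are known as flow-induced factors of endothelium, Klf6 as a factor of injury responses, and Klf15 as a glucocorticoid-responsive and clock-linked regulator of amino acid and lipid use in heart muscle, which sets it apart from the immediate early genes.

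The promoters of the members that rose, where listed, and that of Klf6 are shown so that the letters at which such genes are known to be induced can be compared between members. Entries were matched for 7 of the 10 members, credited to RefSeq on build GRCr8, and run from 250 bases before the annotated start to 50 bases from it on. They lie at chr18:26736828-26737127 (plus strand) for Egr1, chr20:21054392-21054691 (minus strand) for Egr2, chr7:134259888-134260187 (plus strand) for Nr4a1, chr5:75078543-75078842 (minus strand) for Klf4 and chr17:69458429-69458728 (minus strand) for Klf6. Capitals mark the CArG box, the element bound by serum response factor, the core TGACG of the cAMP response element (CGTCA on the other strand), and TGCGTCA, which contains that core.
Egr1: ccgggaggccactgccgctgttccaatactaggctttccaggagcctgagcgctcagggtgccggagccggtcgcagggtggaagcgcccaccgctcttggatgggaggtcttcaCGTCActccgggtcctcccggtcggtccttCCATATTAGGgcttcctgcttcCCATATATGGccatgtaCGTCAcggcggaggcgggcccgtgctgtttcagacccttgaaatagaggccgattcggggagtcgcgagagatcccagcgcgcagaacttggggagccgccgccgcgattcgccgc
Egr2: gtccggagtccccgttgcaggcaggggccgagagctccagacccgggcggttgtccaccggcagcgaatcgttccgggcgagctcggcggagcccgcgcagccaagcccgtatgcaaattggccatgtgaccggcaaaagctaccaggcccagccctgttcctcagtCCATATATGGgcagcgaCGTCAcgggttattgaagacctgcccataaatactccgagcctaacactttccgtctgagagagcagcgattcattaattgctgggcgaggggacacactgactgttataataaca
Nr4a1: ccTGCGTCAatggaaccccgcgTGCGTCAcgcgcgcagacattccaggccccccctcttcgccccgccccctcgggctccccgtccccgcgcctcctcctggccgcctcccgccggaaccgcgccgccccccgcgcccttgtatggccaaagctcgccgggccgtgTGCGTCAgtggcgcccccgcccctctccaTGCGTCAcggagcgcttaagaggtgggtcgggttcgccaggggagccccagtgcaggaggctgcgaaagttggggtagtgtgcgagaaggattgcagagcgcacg
Klf4: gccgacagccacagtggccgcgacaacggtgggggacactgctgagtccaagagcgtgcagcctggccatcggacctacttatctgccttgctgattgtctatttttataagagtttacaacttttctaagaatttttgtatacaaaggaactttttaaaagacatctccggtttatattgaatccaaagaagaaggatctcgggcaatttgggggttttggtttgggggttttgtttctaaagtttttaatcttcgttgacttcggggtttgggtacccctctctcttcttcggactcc
Klf6: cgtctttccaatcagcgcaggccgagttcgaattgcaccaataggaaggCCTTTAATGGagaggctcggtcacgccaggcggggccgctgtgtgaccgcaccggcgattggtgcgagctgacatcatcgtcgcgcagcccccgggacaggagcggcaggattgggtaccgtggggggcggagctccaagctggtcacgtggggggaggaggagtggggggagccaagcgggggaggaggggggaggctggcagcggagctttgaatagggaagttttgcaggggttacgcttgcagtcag

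Both strands were searched. The Egr1 promoter held CArG boxes with their first base at -105 (CCATATTAGG) and -83 (CCATATATGG) from the start, and CGTCA at -135 and -66. In the Egr2 promoter CCATATATGG stood at -83 and CGTCA at -66, the same letters at the same places as in Egr1. Nr4a1 held TGCGTCA at -248, -228, -84 and -55, and the Egr binding site GCGGGGGCG on the other strand at -73. Klf6 held a CArG box at -201 (CCTTTAATGG), and Klf4 held none of the motifs searched. Among the promoters not printed, Nr4a2 had TGACG at -8, and Klf15 had TGACG at -176 and CGTCA at -104. Of all 33469 promoter windows of this length, 1.64% held a CArG box, 21.2% TGACG, 1.90% TGCGTCA, 1.83% the full TGACGTCA, 2.73% GCGGGGGCG and 1.43% AAAGGTCA, the Nr4a site. TGACGTCA and AAAGGTCA were found in 0 of the 7 member windows. These matches describe letters in a window and say nothing of binding.

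The members and the related lists below were chosen with earlier results of these data known. Their counts therefore describe the lists and are no test of them. Of the 10 members, 5 rose in Old hearts and 0 fell, against 6.77% of all genes risen. These were Egr1, Egr2, Nr4a1, Nr4a3 and Klf4, by between 1.16-fold and 1.62-fold. The other 5, Egr3, Nr4a2, Klf2, Klf6 and Klf15, did not pass, and at an unadjusted p under 0.05 the members numbered 6. Means were higher in Old hearts for 8 members and lower for 2. The median difference over the members was 0.21, and -0.01 over all genes. In 3 members every Old array lay above every Young array, as in 5.13% of all genes. The arrays hold RNA of mixed tissue, where fewer cells of a type and less RNA per cell cannot be told apart. Egr2, Nr4a1 and Klf4 kept their calls under all 19 other settings, whereas those of Egr1 and Nr4a3 depended on single arrays, so that leaving out any array left 3 or 4 members called (3 without Young replicate 2, 3 or 4 or Old replicate 3 or 6).

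**Figure D1:**
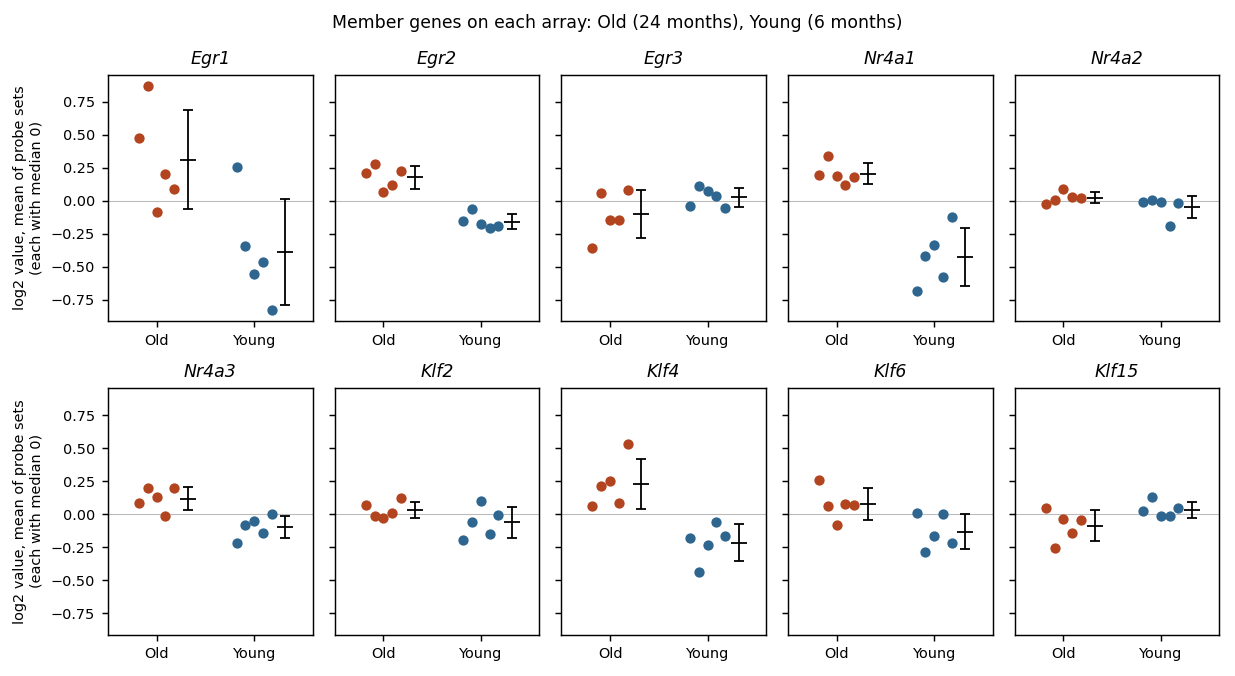
Value of each member gene (log2, mean of its probe sets, each of which has a median of 0 over the 10 arrays) on each array, Old left and Young right, with the mean and SD (n = 5) as black bars. The ages do not overlap in Egr2, Nr4a1 and Klf4, and Egr1 has the widest spread within the ages.

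Among the Egr genes, Egr1 was 1.62-fold higher in Old hearts. It encodes the best studied factor of the family, an activator of growth and matrix genes. Its probe set, 1368321_at, read 0.48, 0.87, -0.09, 0.20 and 0.09 in Old replicates 2, 3, 4, 5 and 6. In Young replicates 1, 2, 3, 4 and 6 it read 0.26, -0.34, -0.55, -0.46 and -0.83. Young replicate 1 lay above 3 of the Old arrays, and the other 4 Young arrays lay below all Old arrays. Means were 0.31 ± 0.37 in Old and -0.39 ± 0.40 in Young hearts (SD, n = 5 each), a difference of 0.70 ± 0.20 (SE, adjusted p = 0.0421, exact two-sided permutation p = 0.0317). The rise was number 146 of 14217 in size, and the spread within the ages was above that of 99.2% of genes. The call held without Young replicate 1 (difference 0.86, adjusted p = 0.0110) or Old replicate 4 (0.79, 0.0310). It was lost without any other array, at adjusted p from 0.0558 to 0.1000.

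Egr2, which encodes a factor best known for nerve myelination and immune tolerance, was 1.26-fold higher as the mean of its probe sets. The difference was 0.34 ± 0.05 (SE, adjusted p = 0.00267, exact permutation p = 0.00794, the smallest that 5 arrays against 5 allow). Its probe sets did not give the same size. On 1387306_a_at the Old arrays read 0.35, 0.34, 0.11, 0.20 and 0.46 in replicate order, and the Young arrays -0.18, -0.11, -0.25, -0.34 and -0.48. There the ages stood apart, with a difference of 0.57 ± 0.08 (SE, adjusted p over probe sets 0.00185). On 1398266_a_at the difference was 0.11 ± 0.06 (SE, adjusted p = 0.335), and the ages overlapped.

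Egr3, a related factor known from muscle spindles and lymphocytes, did not pass. Probe set 1369545_at read -0.36, 0.06, -0.15, -0.14 and 0.09 in Old hearts and -0.04, 0.11, 0.08, 0.04 and -0.05 in Young hearts. Old replicates 2, 4 and 5 lay below every Young array, and the other 2 lay among them. The difference was -0.13 ± 0.08 (SE, adjusted p = 0.348). It was -0.06 without Old replicate 2 (adjusted p = 0.604) and -0.24 without Old replicates 3 and 6 together (adjusted p = 0.0549). Whether Egr3 differs from Egr1 and Egr2 in its response to age was not tested.

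Of the nuclear receptor genes, Nr4a1 had the smallest p among the members and was 1.55-fold higher in Old hearts. It encodes Nur77, known for roles in macrophages and in the use of glucose by muscle. Old arrays read 0.20, 0.34, 0.19, 0.12 and 0.18 on its probe set, 1386935_at, and Young arrays -0.68, -0.42, -0.33, -0.58 and -0.12. No Young array reached an Old array, and the Young arrays were the more spread. Means were 0.21 ± 0.08 in Old and -0.43 ± 0.22 in Young hearts (SD, n = 5 each). The difference of 0.63 ± 0.09 (SE) had an adjusted p of 0.0021, number 90 of all genes by p and number 182 by size of the rise. Leaving out any array gave differences of 0.57 to 0.71 and adjusted p from 0.00242 to 0.00655.

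Nr4a3, which encodes Nor1, was 1.16-fold higher as the mean of 3 probe sets that disagreed. Probe set 1369067_at read 0.09, 0.45, 0.49, 0.08 and 0.58 in Old hearts and -0.39, -0.32, -0.08, -0.28 and -0.15 in Young hearts. Its ages did not overlap, and the difference was 0.58 ± 0.10 (SE, adjusted p over probe sets 0.00544). Probe set 1393389_at gave 0.15 ± 0.07 (SE, adjusted p = 0.217) and 1369217_at gave -0.08 ± 0.05 (SE, adjusted p = 0.381). The first of these 3 was the only member probe set that the numerical step of the values placed in the dimmest class of the table. By that inference its log2 values before centring were 2 to 4. Without that class Nr4a3 had a difference of 0.03 (adjusted p = 0.743). For the gene the difference was 0.22 ± 0.06 (SE, adjusted p = 0.0293, exact permutation p = 0.0159), with 4 Old arrays above every Young array. That call held without Young replicate 6 (0.0307) or Old replicate 2 (0.0348) or 5 (0.0254), and was lost without any other array (0.0529 to 0.0747).

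For Nr4a2, which encodes Nurr1, a factor needed for dopamine neurons, the Old arrays read -0.03, 0.00, 0.09, 0.03 and 0.02 as the mean of 2 probe sets. Young arrays read -0.01, 0.01, -0.01, -0.19 and -0.01. All but Young replicate 4 lay within a narrow band, and the difference of 0.07 ± 0.05 (SE, adjusted p = 0.441) did not pass. Without Young replicate 4 it was 0.03 (adjusted p = 0.701). Its probe sets 1369007_at and 1387410_at gave 0.12 and 0.01.

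**Figure D2:**
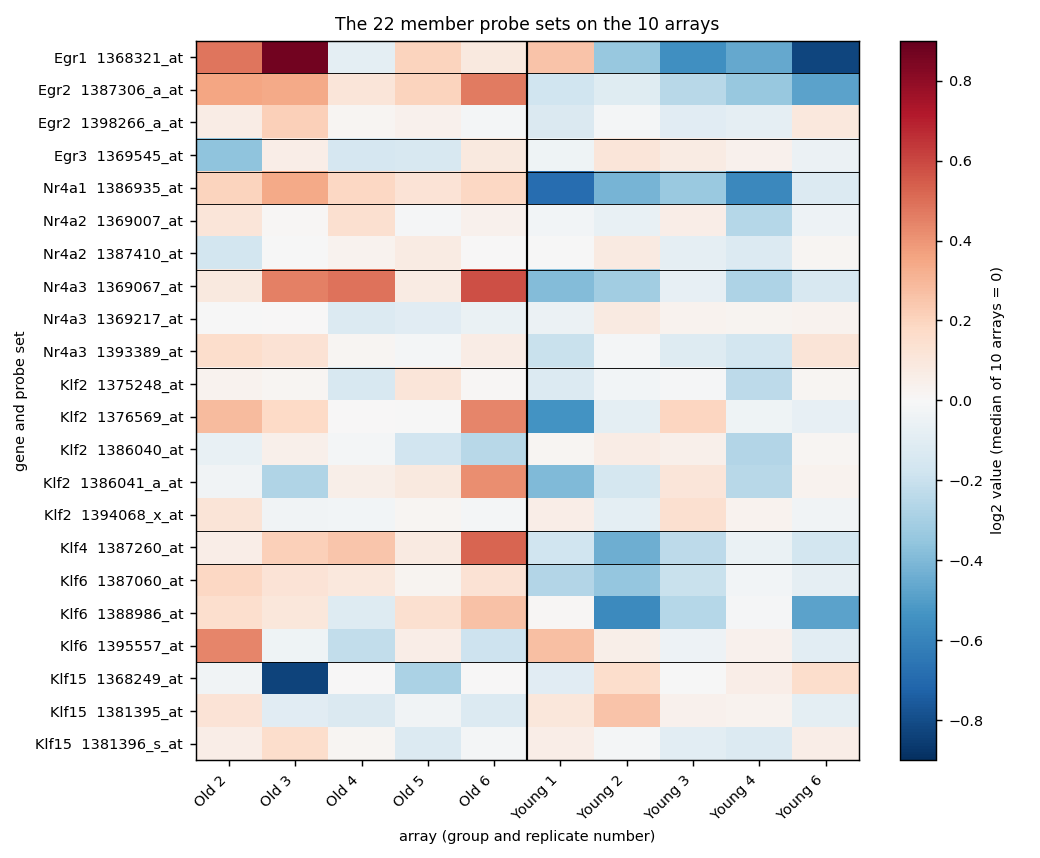
Log2 value of the 22 member probe sets (rows, grouped by gene) on the 10 arrays (columns, Old left of the line and Young right), red above and blue below the median of the 10 arrays. Egr2, Nr4a3, Klf2, Klf6 and Klf15 each have probe sets that differ in pattern.

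Klf4 was the Klf member that rose, 1.36-fold. Besides endothelium it acts in smooth muscle and macrophages, where it is known for switching cell states. Probe set 1387260_at read 0.06, 0.22, 0.25, 0.08 and 0.53 in Old hearts and -0.18, -0.44, -0.24, -0.06 and -0.17 in Young hearts. Old replicate 6 was the highest array and Young replicate 2 the lowest. Means were 0.23 ± 0.19 in Old and -0.22 ± 0.14 in Young hearts (SD, n = 5 each), with a difference of 0.44 ± 0.09 (SE, adjusted p = 0.00969, exact permutation p = 0.00794). Without any array the adjusted p was at most 0.0283.

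Klf6 did not pass as the mean of its 3 probe sets (0.21 ± 0.07 SE, adjusted p = 0.0864). Old arrays read 0.26, 0.06, -0.08, 0.08 and 0.07, and Young arrays 0.01, -0.29, -0.17, 0.00 and -0.22. The probe sets again differed. On 1387060_at the Old arrays read 0.19, 0.12, 0.10, 0.02 and 0.13 and the Young arrays -0.27, -0.35, -0.20, -0.02 and -0.08. This probe set passed over all probe sets (0.30 ± 0.07 SE, adjusted p = 0.0151), with no overlap. On 1388986_at the difference was 0.37 ± 0.11 (SE, adjusted p = 0.0617), and on 1395557_at it was -0.03 ± 0.11 (SE, adjusted p = 0.905). Where 1388986_at, the probe set of largest variance, stood for the gene, Klf6 passed over all genes (0.37, adjusted p = 0.0483). These are the same values that did not pass over all probe sets. The variance was taken over the arrays of both ages together, so this choice of probe set uses the age difference itself. The call of 1387060_at was lost without Old replicates 3 and 6 together (adjusted p = 0.0676).

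The 5 probe sets of Klf2 ranged from -0.07 to 0.29 and 0 of them passed in limma, with 1376569_at at an unadjusted p of 0.0326. That probe set read 0.29, 0.18, 0.00, 0.00 and 0.44 in Old hearts and -0.53, -0.09, 0.19, -0.04 and -0.08 in Young hearts (adjusted p = 0.178). Only Old replicates 2 and 6 lay above all Young arrays. As a gene, Klf2 differed by 0.09 ± 0.06 (SE, adjusted p = 0.356). Without Young replicate 1, the lowest array, the difference was 0.06 for the gene (adjusted p = 0.576) and 0.18 for 1376569_at (adjusted p = 0.32).

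Klf15 had a lower mean in Old hearts and did not pass (-0.12 ± 0.06 SE, adjusted p = 0.226). Old arrays read 0.05, -0.26, -0.04, -0.15 and -0.05, and Young arrays 0.02, 0.13, -0.02, -0.01 and 0.05. Of the Old arrays 4 lay below every Young array, while Old replicate 2 lay above 4 of the Young arrays. On 1368249_at Old replicate 3 read -0.84 and the other Old arrays -0.29 to 0.01, against -0.10 to 0.16 in Young hearts (adjusted p = 0.255). Without Old replicate 3 the difference was -0.13 for this probe set (adjusted p = 0.339), against -0.28 with it, and -0.08 for the gene (adjusted p = 0.378). The other probe sets gave -0.12 and 0.04.

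Over probe sets, 6 of the 22 rose and 0 fell, against 4.42% of all probe sets risen. They belonged to Egr1, Egr2, Nr4a1, Nr4a3, Klf4 and Klf6. Of the 22, 15 had a higher mean in Old hearts and 7 a lower mean.

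**Figure D3:**
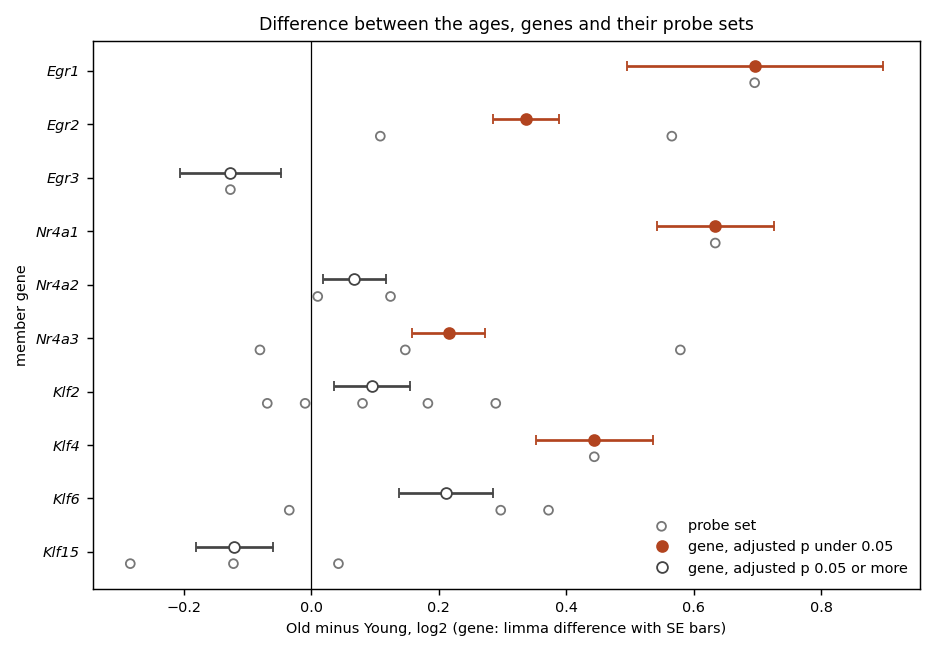
Difference Old minus Young (log2) of each member gene with its SE from limma, filled where the adjusted p was under 0.05, and of each of its probe sets (open grey circles). Egr1, Nr4a1 and Klf4 rest on 1 probe set each, and the 3 probe sets of Nr4a3 range from -0.08 to 0.58.

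The members were also compared with each other within the ages, over each array's deviation from its age mean, in 45 pairs over 10 arrays. The median Pearson r was 0.04, with 24 pairs above 0 and 21 below. By exact two-sided permutation within each age, 0 pairs passed after adjustment over the 45, and 2 had an unadjusted p under 0.05. The highest was Nr4a1 with Nr4a3 (r = 0.805, permutation p = 0.00431, adjusted p = 0.194, rho = 0.770, permutation p = 0.0181, adjusted p = 0.669). It was 0.678 without the 2 arrays farthest from the median of Nr4a1. Nr4a2 with Klf6 was the lowest (r = -0.693, permutation p = 0.0135, adjusted p = 0.305, rho = -0.721, permutation p = 0.0297, adjusted p = 0.669), and was -0.492 without such arrays. Egr1 with Egr2 gave r = 0.574 (permutation p = 0.104, adjusted p = 0.914, rho = 0.539, permutation p = 0.130, adjusted p = 0.853; 0.592 without the 2 arrays farthest from the median of Egr1). Egr1 with Nr4a1 gave r = -0.407 (permutation p = 0.306, adjusted p = 0.914, rho = -0.285, permutation p = 0.484, adjusted p = 0.923; -0.504 without such arrays). Young replicate 1 had the highest Egr1 and the lowest Nr4a1 of the Young arrays. It and Old replicate 3 were the 2 arrays left out for Egr1, and r was still below 0 without them.

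**Figure D4:**
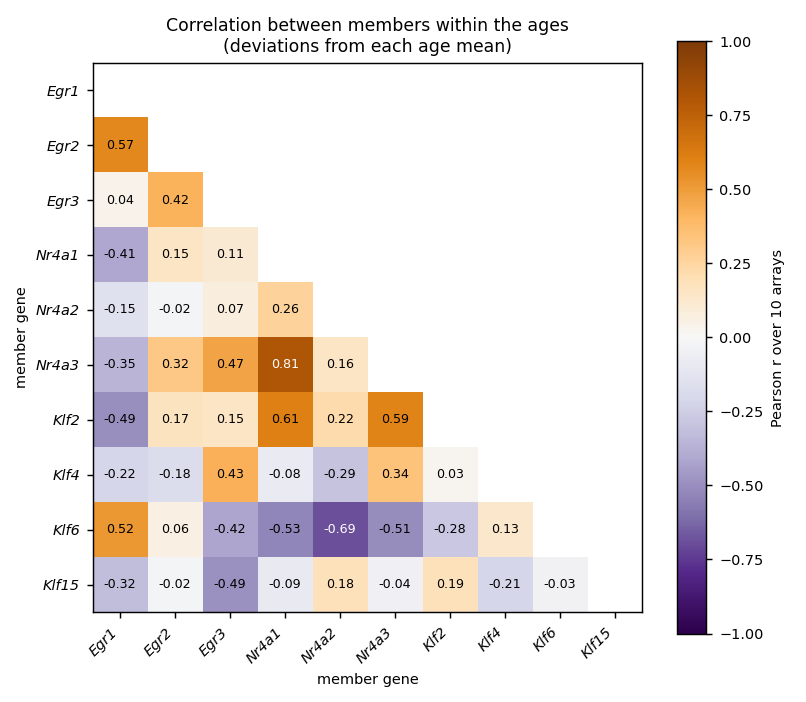
Pearson r between member genes over the 10 arrays, after subtraction of each age mean, for the 45 pairs. Values run from -0.69 (Nr4a2 with Klf6) to 0.81 (Nr4a1 with Nr4a3), and 24 of them are above 0.

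Other immediate early genes were read beside the members, with 8 of 35 changed against 11.9% of all genes. Of these, 7 rose and 1 fell, and the list's median difference was 0.11 against -0.01 over all genes. Maff (0.58 ± 0.08 SE, adjusted p = 0.00177), Atf3 (0.56 ± 0.09 SE, adjusted p = 0.00268) and Ier3 (0.53 ± 0.08 SE, adjusted p = 0.00289) rose with no overlap between the ages. Maff and Atf3 encode basic leucine zipper factors and Ier3 a regulator of cell survival. Gadd45b, of the growth arrest and DNA damage family, rose by 0.34 (adjusted p = 0.0115). The count of risen genes was 4 without Young replicate 2, Young replicate 6, Old replicate 5 or Old replicate 6, and 3 without Old replicates 3 and 6 together. In the same list the fallen gene, outside the naming rule and named after its value was seen, was Gadd45g (-0.51 ± 0.13 SE, adjusted p = 0.0243), whose call was lost without any one of Young replicates 3, 4 and 6 or Old replicates 4, 5 and 6.

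Of 13 other Klf and Sp factors, 2 rose and 0 fell, with a median of 0.06, where 6.77% of all genes rose and 11.9% changed. Klf3 (0.41 ± 0.07 SE, adjusted p = 0.00512) and Klf16 (0.17 ± 0.05 SE, adjusted p = 0.0484) rose, while Klf7 (0.10, adjusted p = 0.298) and the glucocorticoid-responsive Klf9 (-0.08, adjusted p = 0.361) did not pass. Only 1 of the list was called without any single array other than Young replicate 3. Among 16 genes of the input from serum response factor, CREB and MEF2, 1 rose and 2 fell (median -0.03). The ternary complex factor gene Elk1 (-0.20, adjusted p = 0.0286) and Mef2a (-0.22, adjusted p = 0.0306) fell, and the CREB family gene Crem rose (0.15, adjusted p = 0.0482). Elk3 did not pass (0.20, adjusted p = 0.0503). Without single arrays, 0 to 2 genes of this list rose and 0 to 2 fell, and neither Crem nor the falls held without Old replicates 3 and 6 together.

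In the list of Egr partners and reported Egr1 targets, 2 of 8 rose and 1 fell (median 0.14). Of all genes, 11.9% changed and 6.77% rose. The corepressor gene Nab2, which Egr factors induce and whose product restrains them, rose by 0.41 ± 0.11 (SE, adjusted p = 0.0282), and Nab1 did not pass (0.21, adjusted p = 0.0837). The adhesion gene Icam1 rose (0.44, adjusted p = 0.00444), and the vessel growth factor gene Vegfa fell (-0.48, adjusted p = 0.0101). The risen genes numbered 1 without Young replicate 1, 3 or 6 or Old replicate 6, and 0 fell without Old replicates 3 and 6 together. All 8 reported Nr4a1 targets in muscle had lower means in Old hearts, as did 7365 of all 14217 genes. So did all 7 measured cardiomyocyte markers and 11 of the 12 reported Klf15 targets. Nr4a1 itself was higher in Old hearts, and its part in these differences was not tested. The differences of the 8 Nr4a1 targets ran from -0.56 to -0.0037, and 6 of the 8 did not pass. Of them, the phosphofructokinase gene Pfkm (-0.43, adjusted p = 0.00449) and the glycogen phosphorylase gene Pygm (-0.55, adjusted p = 0.00686) fell. Slc2a4, the insulin-regulated glucose transporter gene, (-0.56, adjusted p = 0.0674) and the phosphoglycerate mutase gene Pgam2 (-0.41, adjusted p = 0.0916) did not pass. The median was -0.27, and the fallen genes numbered 4 with quantile normalization or array weights.

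Of 7 reported Klf2 and Klf4 targets in endothelium, 2 rose and 0 fell (median 0.10), against 6.77% of all genes risen. The list holds both induced and repressed targets, so its count and median do not show the direction of Klf activity. Vcam1, an adhesion gene that Klf2 is known to repress, rose by 1.36 (adjusted p = 0.00166), and the angiopoietin receptor gene Tek by 0.35 (adjusted p = 0.0170). Thbd and Nos3, which these factors are known to induce, gave 0.22 (adjusted p = 0.0657) and -0.12 (adjusted p = 0.404). Among 12 reported Klf15 targets, 5 fell and 1 rose, with a median of -0.23, against 11.9% of all genes changed. Gpt of alanine metabolism (-0.66, adjusted p = 0.00265), Acss2 of acetate use (-0.44, adjusted p = 0.00619) and the fatty acid gene Acsl1 (-0.26, adjusted p = 0.0127) fell. Ccn2, a matrix growth regulator that Klf15 is known to repress, rose by 2.09 (adjusted p = 0.000882). The count of fallen targets was 3 without Young replicate 1, Young replicate 2 or Old replicate 5, and without Old replicates 3 and 6 together. The Nr4a1 and Klf15 lists share Slc2a4.

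The glucocorticoid-induced list had 1 of 16 genes risen and 1 fallen (median 0.00), against 6.77% of all genes risen and 11.9% changed. The muscle ubiquitin ligase gene Trim63 fell (-0.81, adjusted p = 0.00264) and Per1 rose (0.26, adjusted p = 0.0485). Foxo1 (-0.18, adjusted p = 0.0520) and Tsc22d3 (0.45, adjusted p = 0.0524) did not pass. Without single arrays, 0 to 2 genes of this list rose and 1 to 2 fell. In the clock list, 8 of 16 changed, 5 upward and 3 downward (median 0.02). Per2 (0.37, adjusted p = 0.00177), Bhlhe41 (0.57, adjusted p = 0.00243) and Dbp (0.88, adjusted p = 0.00268) rose, and Bmal1 fell (-0.61, adjusted p = 0.00177). The risen clock genes numbered 3 without Young replicate 1 or 2 or Old replicate 5 or 6. The labels give no time of day. The part of the clock genes in the values of Klf15 and the other members was not tested.

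**Figure D5:**
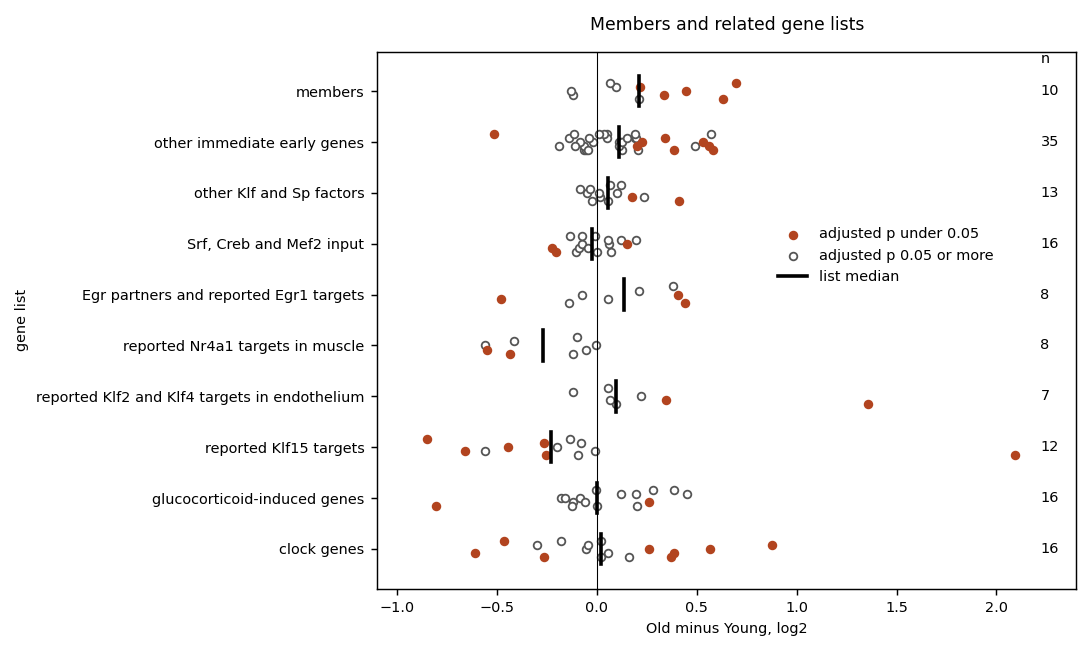
Difference Old minus Young (log2) of each gene in the member list and the related lists, filled where the adjusted p was under 0.05, with the list median as a black bar and the number of measured genes at the right. The members' median is 0.21, and the lists of reported Nr4a1 and Klf15 targets have medians of -0.27 and -0.23. The Klf15 list includes Ccn2, which Klf15 is known to repress.

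Markers of several cell types differed over the same arrays. A list's score is the mean of its genes' values on an array. Counts of markers are to be read beside the 6.77% of all genes that rose and the 11.9% that changed. Macrophage scores were 0.02 to 0.95 in Old and -0.38 to 0.01 in Young hearts, with 4 of 10 markers risen. T and NK cell scores were 0.10 to 1.13 in Old and -0.47 to -0.03 in Young hearts (3 of 10 risen). Named after their values were seen, the risen genes of that list were Gzma (1.98), Gzmb (1.46) and Ptprc (0.50). Its genes Cd3g (0.26), Cd3e (0.02), Cd3d (-0.12) and Cd2 (-0.10) did not pass. Fibroblast scores were -0.06 to 0.44 in Old and -0.27 to 0.01 in Young hearts (5 of 9 risen). Endothelial scores were 0.00 to 0.26 in Old and -0.08 to 0.01 in Young hearts (2 of 9 risen). Scores of the atrial list were 0.18 to 0.69 in Old and -0.84 to -0.28 in Young hearts, where Nppa and Myl7 were the 2 of 5 that rose. Cardiomyocyte scores were -0.37 to -0.03 in Old and 0.09 to 0.23 in Young hearts (3 of 7 fallen). Neutrophil markers had 1 of 3 risen, smooth muscle and pericyte markers 1 of 9, and erythroid (4), adipocyte (5) and B cell (2) markers had 0 changed in limma, at adjusted p of 0.0511 or more. Apart from the coarse brightness class, the centred values do not show which markers are barely detected. The part of these cell types in the members' differences was not tested.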

How the data were processed

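RNA of rat hearts was measured on Affymetrix rat expression arrays, 5 of Old (24 months) and 5 of Young (6 months) hearts. Per the labels' protocols, it was amplified over a pair of cDNA synthesis cycles and labelled with biotin. The authors' deposited values, read as log2, are signed and cover 31042 probe sets, centred so that each probe set has a median of 0 over the 10 arrays (tolerance 1e-06). The log base was inferred from their numerical step. For the software, the background correction and the normalization, the sources used here give nothing. Of the probe sets, 20826 had 1 gene symbol in the platform annotation (20758 matched to RefSeq by gene identifier), 436 had several and 9780 had none listed. A gene's value is the mean of its single-gene probe sets.

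Ages were compared with limma 3.58.1 in R 4.3.3 (no covariate, prior degrees of freedom 4.36 over genes and 5.09 over probe sets), with Benjamini-Hochberg adjustment over all 14217 genes or all probe sets and a threshold of 0.05. The fit was run on simulated data with known differences and noise independent between genes. Effects shared by the genes of an array were not simulated. Exact permutation tests used all 252 arrangements of 5 arrays against 5. Python 3.11.15 with numpy 2.4.6, pandas 2.3.3, scipy 1.17.1 and matplotlib 3.10.9 made the tables and plots. Named are all 10 members, up to 4 genes of smallest p in each related list, and the 3 other genes most like each member. The members and lists were chosen with earlier results of these data known. Other settings were quantile normalization, centring of arrays, array weights, a robust prior, no dim probe sets, other gene summaries, a replicate block, and arrays left out. Same-numbered Old and Young arrays had correlations of 0.035 to 0.145 between their deviations over all genes. With any Young array, those Old arrays had correlations from -0.18 to 0.241. Only for replicate 4 was the correlation highest with the Young array of the same number. The labels do not say what the numbers share, so the arrays were not treated as pairs.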

Additional observations from a re-analysis of the deposited data

Results flagged for a closer look

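Of 56 sets of 5 arrays examined, for each member gene and for each probe set of genes with several, 2 held an array whose gap to the nearest other array was a larger part of the range than Dixon's critical value for 5 values allows. Chance alone gives about 5% of sets. Young replicate 4 read -0.19 for Nr4a2, and the other Young arrays read -0.01 to 0.01. Young replicate 4 also read -0.27 on Klf2 probe set 1386040_at, where the others read 0.02 to 0.06. Without this array the differences Old minus Young were 0.03 (adjusted p = 0.701) for Nr4a2 and -0.13 (adjusted p = 0.268) for the Klf2 probe set.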

How the results depend on the processing

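Egr2, Nr4a1 and Klf4 stayed risen, and Egr3, Nr4a2, Klf2 and Klf15 stayed without a call, under all 19 other settings. The replicate block called 1069 genes (against 1686) and 1640 probe sets (against 2492), with 0 genes of the serum response factor, CREB and MEF2 list among them, and leaving out Old replicates 3 and 6 together, the arrays of highest T and NK cell score, called 1012 and 1526 and left 3 members called. Without any 1 array, 988 to 1994 genes, 1481 to 2943 probe sets and 3 to 4 members were called. The gene count was 1047 without Young replicate 2, 988 without Young replicate 3, 1003 without Old replicate 5 and 1089 without Old replicate 6, and the probe set count 1553, 1492, 1481 and 1618. Egr1 did not pass with a robust prior (0.70, adjusted p = 0.0572) or without both of those Old arrays (0.58, adjusted p = 0.112), and ranged from 0.56 to 0.86 without any 1 array. Nr4a3 did not pass without the dimmest probe sets (0.0332, adjusted p = 0.743), with the replicate block (0.22, adjusted p = 0.0641), as the median of its probe sets (0.14, adjusted p = 0.124) or without both Old arrays (0.16, adjusted p = 0.154), and ranged from 0.19 to 0.25 without any 1 array. Klf6 passed over genes by its probe set of largest variance, 1388986_at (0.37), which did not pass over all probe sets. That variance includes the age difference. In the replicate block, probe set 1387060_at of Klf6 lost its call (0.30, adjusted p = 0.0799). Probe sets near 0 changed sign without a call: Nr4a2 1387410_at (-0.0068 with the replicate block, -0.0158 to 0.0480 without any 1 array), Klf2 1394068_x_at (0.0137 without both Old arrays, -0.0384 to 0.0200 without any 1 array) and Klf6 1395557_at (0.0089 with the replicate block, 0.0464 without both Old arrays, -0.1417 to 0.0235 without any 1 array). The median r between members was 0.34 where age means were not subtracted, which adds the age difference to r. Of the probe set values under other settings, 286 of 305 kept direction and side of the threshold, and 260 of 342 counts over related lists stayed within 1.5 times. For arrays left out, fewer arrays enter the fit. In the replicate block, Young replicate 1 and Old replicate 5 have no array of their number in the other age. They do not bear on the age difference there, so fewer arrays inform it too. For the other settings the cause was not tested.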

Other observations

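For each member, the 3 other genes most like it over the 10 arrays, by Pearson r of the deviations from the age means, had r between 0.898 and 0.963. They were chosen as the highest of all genes, so r is a description. Nearest to Egr1 were Chrne (r = 0.962, rho = 0.976), Snrpd3 (r = 0.926) and Hpf1 (r = 0.917). Egr2 was followed most closely by Ecscr (r = 0.955), Fbxl18 (r = 0.950) and Krt4 (r = 0.940), and Egr3 by Scgb1a1 (r = 0.946), Tmbim1 (r = 0.932) and Baz1b (r = 0.926). For Nr4a1 they were Hal (r = 0.945), Grm7 (r = 0.945) and Grin3a (r = 0.937), for Nr4a2 Tpbgl (r = 0.948), Ifnar1 (r = 0.942) and Neu1 (r = 0.934), and for Nr4a3 Nup214 (r = 0.940), Adgrl1 (r = 0.923) and Slc35b4 (r = 0.923). Among the Klf genes, Klf2 had Ackr2 (r = 0.913), Znrf2 (r = 0.908) and Rbm4b (r = 0.898), and Klf4 had Stmn4 (r = 0.936), Nup205 (r = 0.934) and Mmrn2 (r = 0.924). Klf6 had LOC102548489 (r = 0.904), Tbc1d15 (r = 0.904) and Mtrex (r = 0.902), and Klf15 had Retreg2 (r = 0.963), Gfra4 (r = 0.957) and Idh3g (r = 0.949). Of these genes Tmbim1 (0.59, adjusted p = 0.00228), Mmrn2 (0.28, adjusted p = 0.0165) and Tbc1d15 (0.24, adjusted p = 0.0218) rose in Old hearts in limma, and Idh3g (-0.25, adjusted p = 0.022) fell.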
